A study of Homo sapiens with 6 samples.

Results

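Counts of 9 small structural RNAs were followed in HCT116 cells, an established human cell line that grew out of a colon carcinoma, described by the submitters as poorly differentiated. The RNAs were taken by name: RN7SK, RN7SL1, RN7SL2, RMRP, RPPH1, TERC, RNY1, RNY3 and RNY4. All 9 had a row among the 28278 gene symbols of the count tables. The cells carried either an shRNA against TRIM21 (shTRIM21, labelled TRIM21 knockdown, 3 libraries) or a scrambled shRNA (shControl, labelled WT, 3 libraries). In both groups the shRNA came by lentivirus, and selection with 5 µg/ml puromycin began 36 h later and lasted 2 to 3 weeks (day 21 in the labels). Ribosomal RNA (rRNA) was removed from Trizol-extracted total RNA before a low-input library preparation. The labels give no shRNA sequence, and 1 cell line was used. The labels call the libraries biological replicates without saying whether they came from separate cultures. Each p-value thus rests on the spread between these libraries, part of which may be technical. The comparison asks how RNA levels differ between TRIM21-depleted and control cells.

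These RNAs work as the cores of RNA-protein particles. 7SK (RN7SK) holds the elongation kinase P-TEFb inactive, 7SL (RN7SL1 and RN7SL2) is the scaffold of the signal recognition particle, and RMRP and RPPH1 are the RNAs of the nucleases RNase MRP and RNase P. TERC is the template RNA of telomerase. Y RNAs bind Ro60, and Ro60, La and TRIM21 (also called Ro52) are autoantigens known together from Sjögren's syndrome and lupus. All of the RNAs but TERC are made by RNA polymerase III.

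CPM below are shares, a count relative to the library total scaled to the usual CPM unit, and scaled CPM use library sizes adjusted by TMM. The libraries held from 22656160 to 27123657 counts. TRIM21 had 225, 182 and 173 counts in shTRIM21 and 288, 286 and 443 counts in shControl. Its level was 7.90 ± 1.10 scaled CPM in shTRIM21 and 13.1 ± 2.33 scaled CPM in shControl (SD, n = 3 each), which left 0.603 of the control level. That call of edgeR's quasi-likelihood test (adjusted p = 0.0124 with Benjamini-Hochberg adjustment) was lost without shTRIM21 replicate 3, where the adjusted p was 0.0734. Leaving out replicate 3 of both groups gave 0.114. Of 7 colon epithelial markers all were detected, from CDH17 at 0.795 CPM to KRT18 at 74.5, while 7 markers of fibroblasts, leukocytes, endothelium and hepatocytes summed to no more than 0.147 CPM in any library. Replicate 3 stood apart in both groups by its rRNA. rRNA genes took 15.2%, 13.5% and 9.55% of the counts in shTRIM21 replicates 1 to 3, and 14.7%, 13.2% and 6.69% in shControl replicates 1 to 3.

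The structural RNAs showed no change between shTRIM21 and shControl cells that passed the test, and most of them were counted at low levels. Of the 9 RNAs, 5 passed the filter on low counts and were tested: RN7SK, RN7SL1, RN7SL2, RMRP and RPPH1. Of these 5, edgeR's quasi-likelihood test called 0, against 9.08% of all 14002 genes tested (4.43% higher and 4.66% lower), and 0 had an unadjusted p under 0.05. limma-voom also called 0 of them, and so did edgeR with the replicate number as a block, which called 12.1% of all genes. DESeq2 called 0 of the other 4 and gave no adjusted p for RPPH1. For each of the 5 RNAs the groups overlapped, and 28.1% of all tested genes had groups without overlap. With only 5 RNAs, this is not read as a difference from all genes. The median log2 fold change (shTRIM21 over shControl) was -0.13 over the 5 RNAs and 0.01 over all tested genes. Of the 4 others, TERC had 1 count in all libraries together and RNY1, RNY3 and RNY4 had 0. In bulk RNA, fewer cells that hold an RNA and less RNA per cell cannot be told apart.

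The 9 RNAs together took 38.9, 39.2 and 27.0 CPM in shTRIM21 replicates 1 to 3, and 48.8, 46.6 and 21.4 CPM in shControl replicates 1 to 3. The means were 35.0 ± 6.92 in shTRIM21 and 38.9 ± 15.2 in shControl (SD, n = 3 each), a ratio of 0.90. Replicate 3 was the lowest library of each group, and the shControl libraries lay on both sides of all shTRIM21 libraries. The 2 libraries with the lowest rRNA share were also the 2 with the lowest summed level of the 9 RNAs. Relative to the counts outside rRNA genes the ratio between the groups was 0.905, and without replicate 3 of both groups it was 0.818. The part of the rRNA share in these levels was not tested.

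**Figure D1:**
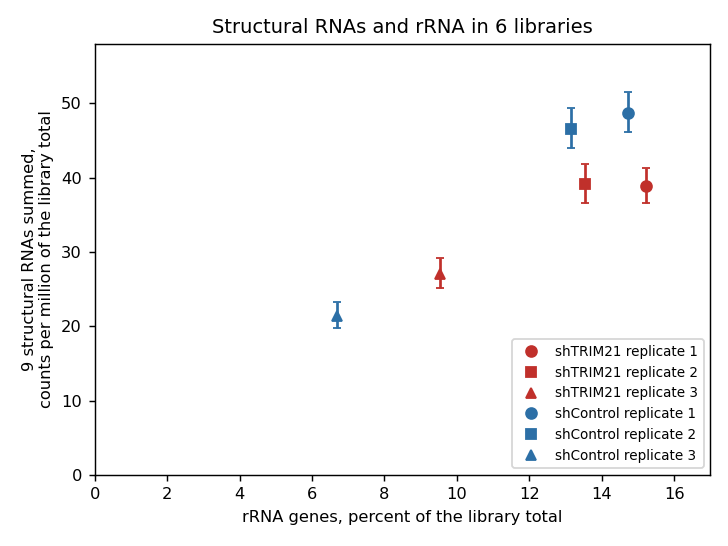
Summed level of the 9 structural RNAs (CPM of the library total, with 95% Wilson intervals) against the rRNA share of each library (percent of the library total), 1 point per library. Both replicate 3 libraries sit at the lower left, at 27.0 and 21.4 CPM with 9.55% and 6.69% rRNA for shTRIM21 and shControl, and the other 4 libraries lie between 38.9 and 48.8.

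Per length, the 7SL rows were the highest. RN7SL2 averaged 50.4 ± 18.5 and RN7SL1 46.7 ± 12.7 CPM per kilobase over the 6 libraries, with lengths from GENCODE (SD, n = 6). These neighbours did not differ beyond their spread. RN7SK followed at 18.2 ± 5.40, with a highest library of 23.7, just under the lowest 7SL library at 25.4. RMRP came next at 5.65 ± 2.76, RPPH1 at 1.27 ± 0.522 and TERC at 0.0123 ± 0.0301 CPM per kilobase. The highest RMRP library, at 9.84 (shControl replicate 2), lay above the lowest RN7SK library, at 9.55 (shTRIM21 replicate 3). Within each library RN7SK was above RMRP. RPPH1, whose highest library was at 1.95, lay below every RMRP library, of which the lowest was at 2.07. All values from here on without "per kilobase" are not corrected for length.

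7SL RNA is bound by the SRP proteins and brings ribosomes that make secreted proteins to the endoplasmic reticulum. RN7SL1 and RN7SL2 lie on chromosome 14, RN7SL1 on the plus strand and RN7SL2 on the minus strand (GRCh38). RN7SL1 lies within the span of RPS29, a ribosomal protein gene on the opposite strand at 44.4 CPM. RN7SL1 and RN7SL2 are known to be nearly identical, which limits how far their counts can be separated. GENCODE lists 677 genes named as 7SL pseudogenes, and 1 of them, RN7SL832P, had a row in the tables, at 1.58 CPM. How the authors treated reads with several positions is not given in the sources used here. At U6 snRNA, 5 copies had the same count in every library, and so did SNORA105A and SNORA105B. How the reads of these copies were assigned was not tested, nor was whether RN7SL1 and RN7SL2 share reads.

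RN7SL1 had 357, 348 and 322 counts in shTRIM21 replicates 1 to 3, and 481, 369 and 207 counts in shControl replicates 1 to 3. As a share of the library this was 13.8, 15.4 and 12.8 CPM in shTRIM21, against 19.2, 15.0 and 7.63 CPM in shControl. The shTRIM21 libraries lay close together, inside the wide range of the shControl libraries. The SD was 1.30 CPM in shTRIM21 and 5.84 in shControl. The log2 fold change of RN7SL1 was 0.0021 (SE 0.23, adjusted p = 0.997 by edgeR's quasi-likelihood test), with a 95% interval of 0.715 to 1.40 for the fold. Its sign changed with the scaling, to -0.0038 with RLE size factors, so no direction is given. Leaving out shControl replicate 3 gave -0.30 and leaving out shControl replicate 1 gave 0.33, and neither passed (adjusted p = 0.216 and 0.467).

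RN7SL2 had 392, 343 and 261 counts in shTRIM21 replicates 1 to 3, and 531, 524 and 207 counts in shControl replicates 1 to 3. That is 15.2, 15.1 and 10.3 CPM in shTRIM21, against 21.2, 21.3 and 7.63 CPM in shControl. Replicates 1 and 2 of shControl were above every shTRIM21 library, and replicate 3 of shControl was below every one. The fitted log2 fold change was -0.30 (SE 0.27, adjusted p = 0.555 by edgeR's quasi-likelihood test), with a 95% interval of 0.547 to 1.20 for the fold.

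Whether RN7SL2 was called depended on the fit. Without shControl replicate 3 the log2 fold change was -0.66 (SE 0.16, adjusted p = 0.0107 by edgeR's quasi-likelihood test), in a fit that called 5.62% of all genes lower. Without replicate 3 of both groups it was -0.48 (SE 0.14, adjusted p = 0.0274), with 4.99% of genes called lower. With the rRNA share of each library as a covariate it was -0.41 (SE 0.14, adjusted p = 0.0344), with 8.28% of genes called lower; that fit was chosen after seeing the data. In all 3 fits RN7SL2 was the only one of the 5 tested RNAs called. Its adjusted p ran from 0.0107 to 0.926 over all alternatives, and its fold change was negative in each.

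The ratio of both 7SL rows within a library does not depend on its total count. RN7SL2 held 52.3%, 49.6% and 44.8% of the counts of the pair in shTRIM21 replicates 1 to 3, and 52.5%, 58.7% and 50% in shControl replicates 1 to 3. The means were 48.9% ± 3.84 in shTRIM21 and 53.7% ± 4.47 in shControl (SD, n = 3 each). The difference of -4.80 percentage points had p = 0.2 in a two-sided exact permutation test, in which 3 against 3 can reach 0.1 at the lowest. With RN7SL1, RN7SL2 and the third copy RN7SL3 summed to 1 row, an alternative added after seeing the data, the log2 fold change was -0.16 (SE 0.23, adjusted p = 0.743 by edgeR's quasi-likelihood test). RN7SL3 itself had 19, 31 and 8 counts in shTRIM21 and 38, 18 and 16 in shControl.

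**Figure D2:**
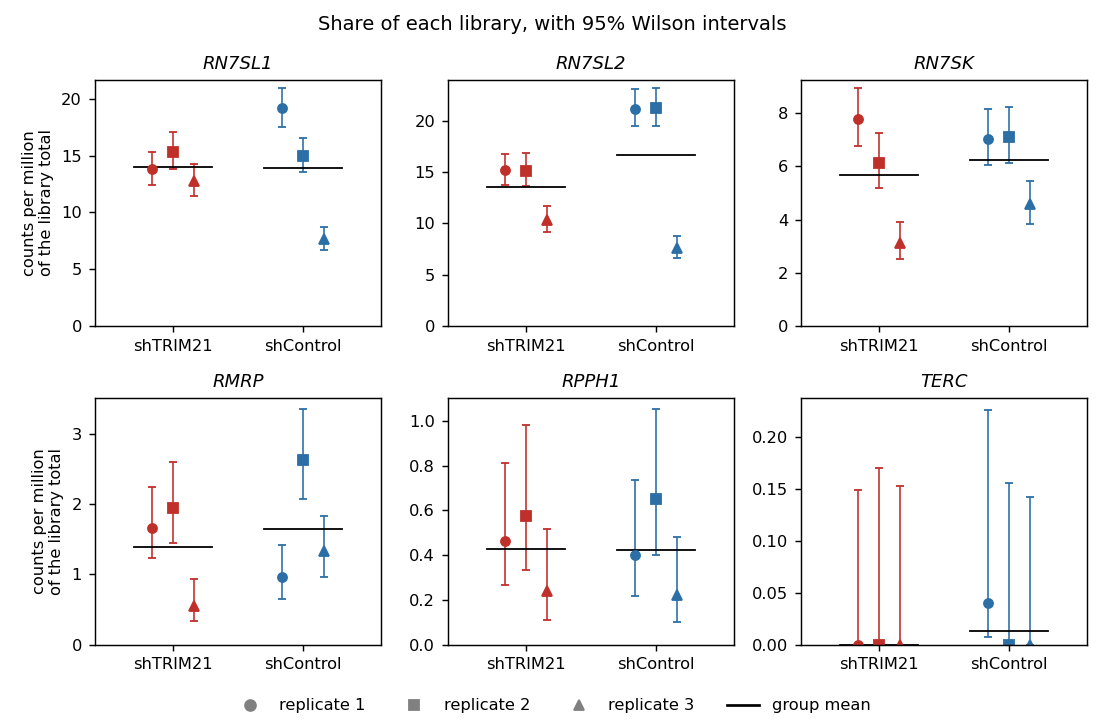
Level of the 6 detected RNAs in each library (CPM of the library total, axes from 0), with 95% Wilson intervals that cover counting error only, and the group mean as a line. Replicate 3 (triangle) was the lowest library of its group for RN7SL1, RN7SL2, RN7SK and RPPH1 in both groups, and RN7SL2 in shControl ranged from 7.63 to 21.3 CPM.

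RN7SK lies on the plus strand at chr6:52995621-52995948 (GRCh38) and is 328 bases long. GENCODE lists 293 genes named as 7SK pseudogenes, and 0 of them had a row. It had 201, 139 and 79 counts in shTRIM21 replicates 1 to 3, and 176, 175 and 124 counts in shControl replicates 1 to 3. This was 7.78, 6.14 and 3.13 CPM in shTRIM21, against 7.02, 7.10 and 4.57 CPM in shControl. The highest and the lowest library were both shTRIM21, and replicate 3 was the lowest of each group. The log2 fold change was -0.13 (SE 0.28, adjusted p = 0.843 by edgeR's quasi-likelihood test), and the 95% interval of the fold ran from 0.608 to 1.38. Without shTRIM21 replicate 3 the value was 0.18 (SE 0.25, adjusted p = 0.743), so its sign rested on that library.

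RMRP, the RNA of the nuclease that cuts precursor rRNA, lies on the minus strand at chr9:35657751-35658018 (GRCh38), 272 bases from CCDC107. It had 43, 44 and 14 counts in shTRIM21, against 24, 65 and 36 counts in shControl. RMRP ran from 0.555 CPM in shTRIM21 replicate 3 to 2.64 CPM in shControl replicate 2, and the groups overlapped. Its highest library was 4.75 times its lowest, against 2.48 times for RN7SK and 2.79 times for RN7SL2. The log2 fold change of -0.23 (SE 0.50, adjusted p = 0.835 by edgeR's quasi-likelihood test) became 0.30 without shControl replicate 2 and 0.16 without shTRIM21 replicate 3.

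RPPH1, the RNA of the nuclease that trims the 5′ ends of precursor tRNAs, lies on the minus strand at chr14:20343075-20343407 (GRCh38), 175 bases from PARP2. It had 12, 13 and 6 counts in shTRIM21, against 10, 16 and 6 counts in shControl, and both replicate 3 libraries were the lowest. With so few counts the log2 fold change was 0.01 (SE 0.66, adjusted p = 0.993 by edgeR's quasi-likelihood test). It left a 95% interval of 0.387 to 2.63 for the fold, so the data do not separate folds inside that range. The interval is no limit of detection. The sign of the RPPH1 change moved with single libraries, with values of -0.31 without shControl replicate 3 and 0.46 without shControl replicate 2.

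**Figure D3:**
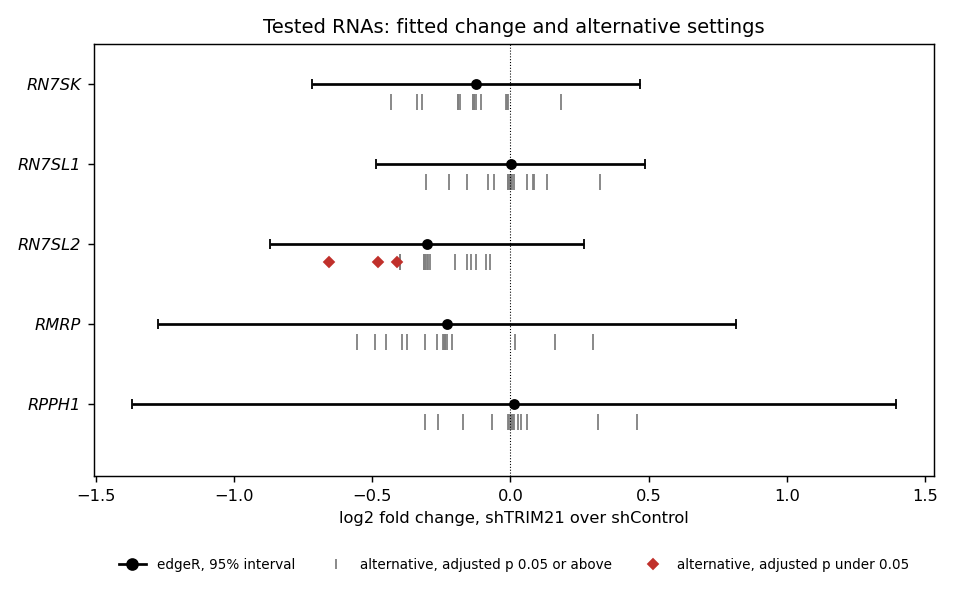
Log2 fold change of the 5 tested RNAs, shTRIM21 over shControl, from edgeR with its 95% interval (black), and the same value under each alternative setting (grey ticks, with red diamonds where the adjusted p was under 0.05). All 5 intervals include 0, and the red diamonds, at -0.66, -0.48 and -0.41, belong to RN7SL2.

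TERC lies on the minus strand at chr3:169764520-169765060 (GRCh38). It had 0 counts in the 3 shTRIM21 libraries and 1, 0 and 0 counts in the shControl libraries, at or under the limit of 3 counts per library, so no fold is given. With the limit for a count of 0 set at 3 counts, a share of up to 0.132 CPM in the smallest library and 0.111 in the largest is allowed, for counting error only. TERT, the protein that copies the TERC template, was at 1.36 ± 0.262 scaled CPM in shTRIM21 and 1.11 ± 0.430 scaled CPM in shControl (SD, n = 3 each), and did not pass the test (adjusted p = 0.755 by edgeR's quasi-likelihood test).

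RNY1, RNY3 and RNY4 were at 0 in each of the 6 libraries, so the data give no comparison of these Y RNAs. They lie in 1 cluster on chromosome 7 (GRCh38), with RNY4 on the plus strand at chr7:148963315-148963410 and RNY1 on the minus strand at chr7:148987136-148987248. The GENCODE sequences of RNY1 and RNY4 are shown to give what was looked for: short RNAs that share a start (capitals, T is written for U) which pairs with the 3′ end in the stem that Ro60 binds.
RNY1: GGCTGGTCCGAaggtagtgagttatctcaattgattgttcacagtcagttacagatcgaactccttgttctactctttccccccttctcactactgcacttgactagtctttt
RNY4: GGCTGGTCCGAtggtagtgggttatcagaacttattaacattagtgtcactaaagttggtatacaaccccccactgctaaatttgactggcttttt
The first 11 bases are the same in both, and over the whole length RNY1 and RNY4 share 63.7% of aligned bases. RNY1, RNY3 and RNY4 are 113, 102 and 96 bases long, the shortest of the 9 RNAs. GENCODE lists 16, 15 and 22 genes named as their pseudogenes, and 0 of these had a row. The fourth Y RNA, RNY5, had 2, 1 and 0 counts in shTRIM21 and 0, 0 and 0 in shControl, at or under the limit of 3 counts per library. POLR3E, a subunit of RNA polymerase III, was also listed at 0 in all libraries. A listed 0 alone does not show that an RNA was lacking, and the cause of these zeros was not tested.

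The Y RNAs were not alone at 0 among short RNA genes. Leaving snoRNAs and scaRNAs aside, 71 small RNA symbols with a row are under 200 bases long in RefSeq. Of these, 46 were at 0 in all libraries (64.8%) and 1, the U2 snRNA RNU2-1, averaged at least 1 CPM. Copies of the SNAR family made up 28 of the 71 symbols and 26 of the 46 zeros, and without them 20 of 43 (46.5%) were at 0. RNY1, RNY3 and RNY4 themselves are among these zeros. The 7 symbols of at least 200 bases were RN7SK, RMRP, RPPH1, TERC, RN7SL1, RN7SL2 and RN7SL3. All of them but RN7SL3 belong to the 9 RNAs, so they are no independent set for length. Of these 7, 0 were at 0 in all libraries and 4 averaged at least 1 CPM: RN7SK, RMRP, RN7SL1 and RN7SL2. The vault RNAs VTRNA1-1, VTRNA1-2 and VTRNA2-1 and the spliceosomal RNAs RNU4-1, RNU4-2, RNU5A-1, RNU5B-1 and RNU12 were at 0 in all libraries, as the Y RNAs were. Among snoRNA genes under 200 bases, 41.2% of 517 were at 0 and 107 averaged at least 1 CPM. Most human snoRNAs lie in introns of other genes, and reads of the host transcript could not be told apart from theirs. TERC, the longest of the 9, had 1 count. The part of RNA length, library preparation and counting in these zeros was not tested.

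Other small noncoding RNAs of like kind did not pass the test either. Of 34 with a row, 12 were at 0 in all libraries, 6 were tested and 0 were called, with 5 negative fold changes and a median log2 fold change of -0.40. Apart from RNU2-1, the tested ones (RN7SL3 among them) averaged only 0.450 to 0.876 CPM. Their SE ran from 0.589 to 0.706 on the log2 scale, so no direction is given. RNU2-1 had 81, 155 and 106 counts in shTRIM21 and 222, 256 and 89 counts in shControl, so the groups overlapped. Its log2 fold change was -0.67 (SE 0.34, adjusted p = 0.248 by edgeR's quasi-likelihood test). Among 165 tested snoRNA and scaRNA genes 1 rose and 2 fell, 1.82% called against 9.08% of all tested genes, with a median of -0.02. Many snoRNA genes had low counts: of 517 under 200 bases, tested or not, 107 averaged at least 1 CPM. The lower share called is therefore not read as a difference from all genes.

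RO60, which encodes the Ro60 protein that binds Y RNAs, fell in the shTRIM21 cells. It had 5300, 5061 and 5678 counts in shTRIM21, against 6868, 7050 and 7698 counts in shControl, and the groups did not overlap. Its level was 218 ± 9.76 scaled CPM in shTRIM21 and 281 ± 6.99 scaled CPM in shControl (SD, n = 3 each), with a log2 fold change of -0.36 (SE 0.06, adjusted p = 0.000833 by edgeR's quasi-likelihood test). The call held in all 17 alternatives, with adjusted p from 2.7e-08 to 0.012. SSB, the La protein that binds the 3′ ends of new polymerase III transcripts, had 5220, 5282 and 6630 counts in shTRIM21 and 5014, 5096 and 7297 counts in shControl. The SSB groups overlapped (log2 fold change 0.05, SE 0.09, adjusted p = 0.779). Of 11 tested genes on the list of Ro particle and Y RNA partners, which holds TRIM21 itself, 2 fell (TRIM21 and RO60) and 0 rose. The other 9 did not pass, and the median log2 fold change was 0.0023.

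Of the 7 proteins of the 7SK particle 1 fell and 0 rose, with a median log2 fold change of -0.02. HEXIM1, which inhibits P-TEFb when bound to 7SK, was at 41.4 ± 2.51 scaled CPM in shTRIM21 and 51.6 ± 2.96 scaled CPM in shControl (SD, n = 3 each). Its log2 fold change was -0.32 (SE 0.09, adjusted p = 0.0280 by edgeR's quasi-likelihood test), and the call was lost without shControl replicate 1 (adjusted p = 0.107) or 2 (0.106) and without shTRIM21 replicate 1 (0.106), 2 (0.10) or 3 (0.0506). LARP7, which protects the 3′ end of 7SK, gave -0.19 (SE 0.10, adjusted p = 0.274). MEPCE, which caps its 5′ end, gave 0.21 (SE 0.08, adjusted p = 0.106), and neither passed.

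Of 8 proteins of the signal recognition particle and its receptor 1 fell and 1 rose, with a median of -0.02. SRP72, which binds 7SL with SRP68, had 4757, 4476 and 5011 counts in shTRIM21 and 5576, 5758 and 6798 in shControl. It fell by 0.28 on the log2 scale (SE 0.06, adjusted p = 0.00789 by edgeR's quasi-likelihood test), a call that held in all alternatives. SRP14, which binds the Alu end of 7SL, rose by 0.21 (SE 0.06, adjusted p = 0.0450), a call lost with RLE size factors (adjusted p = 0.0559), with library totals only (0.144), without rRNA genes (0.0510), and without shControl replicate 1 (0.174) or 2 (0.132) or shTRIM21 replicate 1 (0.112), 2 (0.0876) or 3 (0.166).

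Of 11 proteins of RNase P and RNase MRP 1 fell and 0 rose, with a median of -0.02. POP4, a subunit of both enzymes, was at 41.1 ± 3.59 scaled CPM in shTRIM21 and 51.3 ± 4.82 scaled CPM in shControl (SD, n = 3 each), and fell by 0.32 (SE 0.09, adjusted p = 0.0404 by edgeR's quasi-likelihood test). That call was lost with library totals only (adjusted p = 0.0559) or upper-quartile scaling (0.0505), without shControl replicate 1 (0.0817) or 3 (0.105), without shTRIM21 replicate 1 (0.0785), 2 (0.0675) or 3 (0.194), and without replicate 3 of both groups (0.295). Of 8 telomerase proteins 1 rose and 0 fell, with a median of 0.08. NOP10, a small protein of H/ACA particles such as telomerase, had 2290, 1991 and 2102 counts in shTRIM21 and 1667, 1712 and 1875 in shControl. It rose by 0.35 (SE 0.07, adjusted p = 0.00571), a call that held in all alternatives.

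Of 17 tested subunits of RNA polymerase III 0 rose and 0 fell in edgeR's quasi-likelihood test, with a median of 0.05. POLR3GL had the smallest adjusted p (0.151, unadjusted p = 0.0262, log2 fold change 0.31), and it was called in the fit with the rRNA covariate (adjusted p = 0.0494). Among 19 initiation and control genes the median was 0.03, 1 rose (MAF1), 2 fell (GTF3C4 and BDP1) and 16 missed the threshold. MAF1, the repressor of polymerase III, had 1852, 1377 and 1511 counts in shTRIM21, against 1046, 1176 and 1127 counts in shControl. Every shTRIM21 library of MAF1 was above every shControl library. MAF1 was at 64.3 ± 7.45 scaled CPM in shTRIM21 and 43.7 ± 4.03 scaled CPM in shControl (SD, n = 3 each), and rose by 0.56 (SE 0.10, adjusted p = 0.00102), a call that held in all 17 alternatives, with adjusted p up to 0.00963.

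GTF3C4, a subunit of the initiation factor TFIIIC, fell by 0.27 (SE 0.06, adjusted p = 0.0104 by edgeR's quasi-likelihood test), a call lost when shControl replicate 1 was left out (adjusted p = 0.0819) and when shTRIM21 replicate 3 was (0.0630). BDP1, a subunit of TFIIIB, fell by 0.23 (SE 0.07, adjusted p = 0.0378), a call lost with library totals only (adjusted p = 0.0852), without shControl replicate 1 (0.172) or 2 (0.114), and without shTRIM21 replicate 1 (0.146), 2 (0.0674) or 3 (0.119). Of 13 genes listed under small RNA end processing 0 were called in edgeR's quasi-likelihood test. The smallest adjusted p (0.0870, unadjusted p = 0.0108) was that of LARP1, which gave -0.17. LARP1 was on this list, though it is an RNA-binding protein known for control of ribosomal protein mRNAs. It was called by DESeq2 (adjusted p = 0.0147), without rRNA genes (0.0451), without shControl replicate 3 (0.0136), without replicate 3 of both groups (0.0349) and with the rRNA covariate (0.00586). Over all 93 tested partner and polymerase III genes 3 rose and 7 fell, or 10.8% called against 9.08% of all tested genes, a share near the background. TRIM21, the target of the shRNA, is among the 93 and among the 7 that fell. Groups without overlap were found for 24 of the 93, beside the 28.1% of all tested genes.

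**Figure D4:**
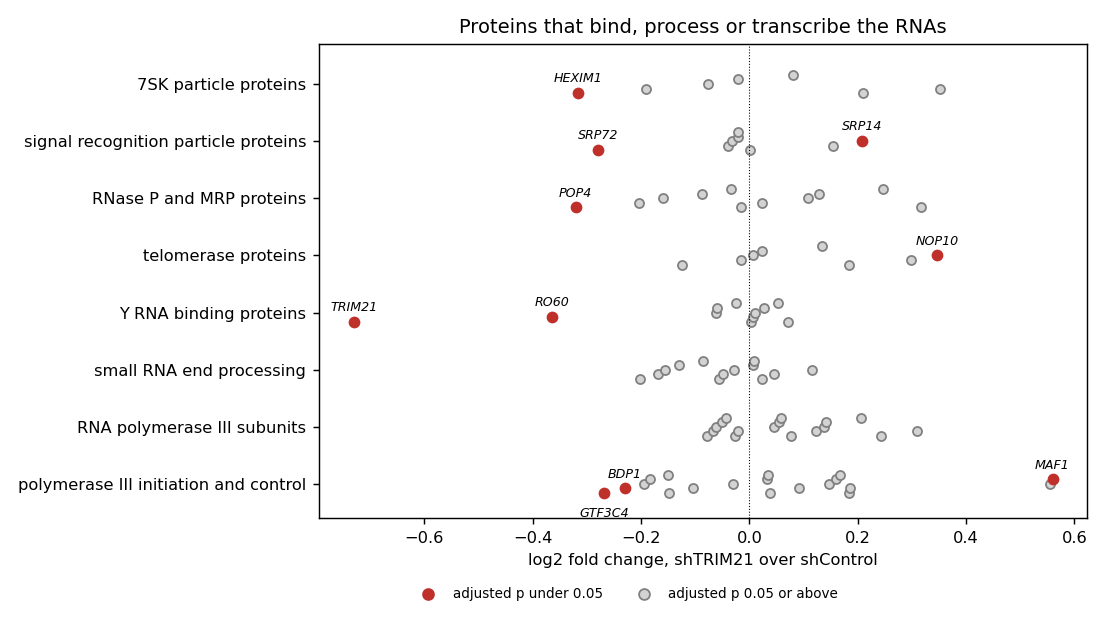
Log2 fold change, shTRIM21 over shControl, of genes whose proteins bind, process or transcribe the structural RNAs, 1 point per tested gene and 1 line per list, with genes at an adjusted p under 0.05 in red and named. Among the named genes TRIM21 lies lowest at -0.73 and MAF1 highest at 0.56.

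The genes whose profile over the 6 libraries was closest to that of RN7SL1 were LINC00680-GUSBP4, GNG12-AS1 and NAGLU. Their root mean square differences from it were 0.0899, 0.131 and 0.137 on the centred log2 CPM scale, where RN7SL1 itself varied by 0.434. Closest to RN7SL2, which varied by 0.558, were LOC100507071, PEX16 and VGF, at 0.0940, 0.115 and 0.118. These 6 genes averaged from 0.479 to 5.59 scaled CPM. The profiles share the libraries, their rRNA shares and their depths, and likeness here is a description with no test.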

How the data were processed

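Each of the 6 libraries has a table of counts by gene symbol that the authors deposited as whole numbers. The submitters' processing notes name the hg38 build and the tools TopHat2 2.1.1, limma 3.52.2 and edgeR 3.38.1. How reads were counted (tool, annotation, strand, multiple positions) is not given in the sources used here. Without a strand setting, reads of overlapping genes cannot be told apart.

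A share is a row's count relative to the library total, as CPM, with a 95% Wilson interval. The test was the quasi-likelihood test in edgeR 4.0.16 under R 4.3.3, with the default filter on low counts, TMM scaling, no covariate and Benjamini-Hochberg adjustment over 14002 genes, at a threshold of 0.05. In the edgeR fits the SE is the absolute log2 fold change divided by the square root of F. Alternatives covered scaling, filter, rRNA genes and the 20 most abundant genes left out, DESeq2 1.42.0, limma-voom (limma 3.58.1), a replicate block and libraries left out. The rRNA covariate, the summed 7SL row and the summed share without replicate 3 were added after seeing the data. The permutation test of the RN7SL2 percentage was not among the planned tests, and with 3 against 3 it could not pass 0.05. For library pairs of a group, chi-square per degree of freedom, a variance relative to sampling noise, ran from 5.70 to 72.9. The rRNA genes were included in it.

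The members and lists were chosen with earlier results of these data known. All 9 members are given, then up to 4 called genes per list by adjusted p, or the one with the smallest adjusted p, with RO60 and SSB. TERT, LARP7, MEPCE, RNU2-1 and the RNAs named at 0 were added after their values were seen. Likeness was computed for members of at least 10 CPM with a prior count of 2. Positions and RNA sequences come from GENCODE release 29 (GRCh38) and gene lengths by class from RefSeq (GRCh38.p14). Sequences were aligned with Biopython 1.88, and some sequences are not reported here.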

Additional observations from a re-analysis of the deposited data

How the results depend on the processing

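With 1 library left out at a time, the members called numbered 0 to 1, all genes called 602 to 1737 and partner and polymerase III genes called 4 to 12, against 0, 1272 and 10. Over the same fits the log2 fold change ranged from -0.43 to 0.18 for RN7SK, from -0.30 to 0.33 for RN7SL1, from -0.66 to -0.074 for RN7SL2, from -0.55 to 0.30 for RMRP, from -0.31 to 0.46 for RPPH1 and from -0.022 to 0.18 for SSB, and the ratio of the summed share from 0.734 to 1.03. Without replicate 3 of both groups RN7SL2 was called (-0.48, 1 member called), and RN7SL1 (-0.22), RMRP (0.017) and RPPH1 (-0.0065) changed sign. With the rRNA share as a covariate RN7SL2 was called (-0.41, 1 member called), RN7SL1 (-0.061) and RPPH1 (-0.17) changed sign, and 2331 genes were called. RN7SL1 was also negative with RLE size factors (-0.0038), without rRNA genes (-0.0100), without the 20 most abundant genes (-0.0047), with DESeq2 (-0.0075) and with the 7SL rows summed (-0.16). The cause was not tested. With the replicate number as a block, RN7SK (-0.18), RN7SL1 (0.09), RN7SL2 (-0.20), RMRP (-0.27) and RPPH1 (0.04) kept their sign, 0 members, 1699 genes and 11 partner genes were called, and no gene named by the rule for lists gained or lost its call. Deviations from the group mean correlated at 0.096, -0.012 and 0.091 between libraries numbered 1, 2 and 3. For 1 and 3 this was the best match of each and for 2 it was not. The numbers were not taken as pairs. Other scalings, filters and tools kept the counts of calls within 1.5 times. TERC and the Y RNAs had too few counts for a test at this depth.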
